A study of Mus musculus with 2 samples.

Results

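Mir106b, Mir93 and Mir25 form 1 of the mouse relatives of the miR-17 microRNA (miRNA) cluster, and Mir106a, Mir18b, Mir20b, Mir19b-2, Mir92-2 and Mir363 form the other. These 9 genes were taken by name from the 1973 miRNA genes of the count tables, and no threshold on a measured value was applied. All 9 have a row in both tables. The libraries are small RNA sequencing of total RNA from hearts of B6NCrl mouse embryos at embryonic day 14.5, with no transgene, deletion or treatment named, and they form 1 group of 2 libraries. The labels number them as biological replicates 1 and 2 and date their collection to 15 and 17 July 2014. They call each sample a single heart but also give the sex as pooled male and female, and both carry the same donor identifier. Whether the spread between the libraries is that between animals is therefore not settled. No other group exists, so the clusters were compared with each other inside each library.

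The clusters are thought to have arisen by duplication of an ancestral miR-17 cluster, and the miRNAs they make fall into 4 families by seed, the bases near the 5′ end that pair with target mRNAs. The best studied of the clusters, Mir17-Mir92-1, is activated by MYC and E2F factors, limits inhibitors of the cell cycle and the pro-apoptotic Bim, and is needed for normal growth of the fetal heart and lung. Mir106b, Mir93 and Mir25 lie inside Mcm7, a gene for a subunit of the helicase that opens DNA for replication. The X-linked cluster is known for low levels in most tissues.

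The tables account for 8150499 reads in replicate 1 and 7269505 in replicate 2. Reads on the counted strand of miRNA genes came to 4327424 and 3839984, and levels are given as CPM, counts scaled to these totals. A miRNA read covers a whole mature arm, and all arms of these clusters are 21 to 24 bases long, so levels of different genes were compared with no scaling for length. Whether arms of different sequence enter the libraries equally was not tested, so ratios between genes are ratios of reads and not of molecules. Detection meant a count of 10 or more in both libraries. A count of 3 corresponds to 0.693 CPM in replicate 1 and 0.781 in replicate 2. The cardiac miRNAs Mir208a, Mir208b and Mir499 were all detected and summed to 75752 and 79353 CPM. Mir1a-1 and Mir133a-1 were not on this list and stood at no more than 3.13 CPM in either library. Why these genes were low was not tested, so the list is not a full check of the tissue. Of the lists of other cell types, erythroid Mir451a and Mir144 summed to 1184 and 489 CPM, and 7 epithelial miRNAs to 667 and 1142. Of 6 neuronal genes with a row, the 5 that encode miR-124 and miR-9 were at 0 in both libraries, and Mir137 gave the list its 13.2 and 85.7 CPM. Several genes encode each of miR-124 and miR-9, and reads that mapped to several places were counted for no gene. Their zeros therefore do not show that these miRNAs were absent.

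The arm that carries the family seed is shown for each of the 9 members, since both the grouping and the reliability of each count rest on it. Sequences are from RefSeq (GRCm38.p6), where all 9 members were matched, and run 5′ to 3′ with the seed, bases 2 to 8, in capitals. Mir106b, Mir93, Mir106a and Mir20b share the miR-17 seed.
miR-106b-5p: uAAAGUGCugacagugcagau
miR-93-5p: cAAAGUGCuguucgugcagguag
miR-106a-5p: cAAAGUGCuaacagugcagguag
miR-20b-5p: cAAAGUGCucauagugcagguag
miR-17-5p: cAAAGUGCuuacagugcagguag
The last of these is from Mir17 and is given for comparison. Mir25, Mir92-2 and Mir363 share the miR-92 seed.
miR-25-3p: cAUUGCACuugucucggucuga
miR-92a-3p: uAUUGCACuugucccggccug
miR-363-3p: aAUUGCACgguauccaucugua
Mir18b and Mir19b-2 carry the miR-18 and the miR-19 seed, which have no counterpart in the cluster in Mcm7.
miR-18b-5p: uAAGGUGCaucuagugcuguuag
miR-19b-3p: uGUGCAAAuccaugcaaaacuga

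Some of these arms differ by very few bases from an arm of another locus. Counted from 1 at the 5′ end, miR-106a-5p differs from miR-17-5p at 1 position (U10A, with the base of miR-17-5p first). From miR-20a-5p, miR-20b-5p differs at 2 positions (U1C and U10C), and from miR-18a-5p, miR-18b-5p differs at 2 (A18U and A20U). The arms from Mcm7 stand further off. Over 21 bases miR-106b-5p differs from miR-17-5p at 3 positions (C1U, U10G and G20A), and over 23 bases miR-93-5p differs from it at 4 (U10G, A11U, C12U and A13C). miR-25-3p differs from miR-92a-3p at 3 of 21 positions (U1C, C14U and C18U). The arm of Mir363 shares the seed of miR-92a-3p but differs from it at 11 of 21 positions.

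Mir92-2 and Mir19b-2 make an arm that is identical to that of a gene of the Mir17-Mir92-1 cluster. Hairpin segments of the paired loci are shown with the longest shared stretch in capitals, because a read of the 3p arm that stays inside the capitals matches both loci. The 5p arms, which are not shown, differ between the paired loci and are counted in the same rows.
Mir92-1: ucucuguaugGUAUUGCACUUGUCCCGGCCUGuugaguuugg
Mir92-2: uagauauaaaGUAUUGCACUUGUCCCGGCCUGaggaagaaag
Mir19b-1: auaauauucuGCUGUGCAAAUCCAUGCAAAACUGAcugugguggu
Mir19b-2: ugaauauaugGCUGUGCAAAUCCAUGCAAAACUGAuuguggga
The shared stretch spans 22 bases for the miR-92a pair, 1 more than the 21-base arm and on its 5′ side. For the miR-19b pair it spans 25 bases and holds the 23-base arm with 2 further bases before it. In both pairs the hairpins part directly after the arm. The tables count reads that mapped to several places on a line of their own, 30.6% of all reads in replicate 1 and 30.1% in replicate 2, and do not say from which genes. How many reads of Mir92-1, Mir92-2, Mir19b-1 and Mir19b-2 were placed on that line is therefore unknown.

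Both clusters are compact and lie on the minus strand (mm10 coordinates throughout). The autosomal cluster spans 498 bases of chromosome 5 (138165321 to 138165818). Its order along the transcript is Mir106b (138165737 to 138165818), Mir93 (138165523 to 138165610) and Mir25 (138165321 to 138165404). All 3 hairpins lie in intron 13 of the 15-exon Mcm7 transcript, on the coding strand of the gene. Mir93 and Mir25 also lie within exon 1 of a 2-exon Mcm7 transcript annotated as a retained intron. The X-linked cluster spans 875 bases (52741693 to 52742567). It runs from Mir106a (52742503 to 52742567) through Mir18b (52742331 to 52742413), Mir20b (52742113 to 52742192), Mir19b-2 (52741983 to 52742066) and Mir92-2 (52741838 to 52741928) to Mir363 (52741693 to 52741767). Mir106a overlaps the last exon of the noncoding transcript gene Kis2 by at most 5 bases, and the 5 other hairpins lie outside annotated genes.

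The cluster in Mcm7 was far more abundant than its X-linked relative in both libraries. Its 3 genes summed to 35386 counts in replicate 1 and 34505 in replicate 2, or 8177 and 8986 CPM (8581 ± 572, SD, n = 2). The 6 X-linked genes summed to 288 counts in each library, or 66.6 and 75.0 CPM (70.8 ± 5.97). The ratio of the sums was 123 in replicate 1 (95% counting interval 109 to 138) and 120 in replicate 2 (107 to 135), and the ranges of the clusters did not overlap. Every gene of the autosomal cluster lay above every gene of the X-linked one in both libraries. With 2 libraries an exact test of the sign could not go below p = 0.5, so none was used. Whether a low level reflects few expressing cells or little RNA in each cannot be told apart in whole hearts. Without Mir92-2 and Mir19b-2, whose 3p arms are not unique, the ratio was 199 ± 13.1, a removal that can only raise it.

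Of the 9 members 8 were detected, all 3 in Mcm7 and 5 of 6 on the X chromosome, against 17.1% of all 1973 genes in the tables. At least 1000 CPM in each library was reached by Mir106b and Mir93, and by 3.85% of all genes. The detected genes had a median level of 104 CPM. All 3 autosomal members lay above it and all 6 X-linked members below it.

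Mir93, a miRNA of the miR-17 family, was the highest member. It had 19699 counts in replicate 1 and 16879 in replicate 2, or 4552 and 4396 CPM (4474 ± 111), which placed it at ranks 28 and 30 among all genes. Mir106b, of the same seed, had 13807 and 15674 counts, or 3191 and 4082 CPM (3636 ± 630), at ranks 39 and 33. Mir93 exceeded Mir106b in both libraries, although by 1.43-fold (1.40 to 1.46) in replicate 1 and only 1.08-fold (1.05 to 1.10) in replicate 2. Mir25, which has the miR-92 seed, was the lowest of the 3 with 1880 and 1952 counts, or 434 and 508 CPM (471 ± 52.3), at ranks 99 and 98. Mir106b stood 7.34-fold (7.00 to 7.71) and 8.03-fold (7.66 to 8.42) above Mir25. The levels thus ran Mir93, Mir106b, Mir25 in both libraries, with the gene nearest the 3′ end of the intron lowest. Genes closest to Mir93 in mean log2(CPM + 1) over the 2 libraries were Mir151, 0.02 above it, and Mir411 and Mir98, at -0.04 and -0.10 from it. This likeness is of level alone.

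**Figure D1:**
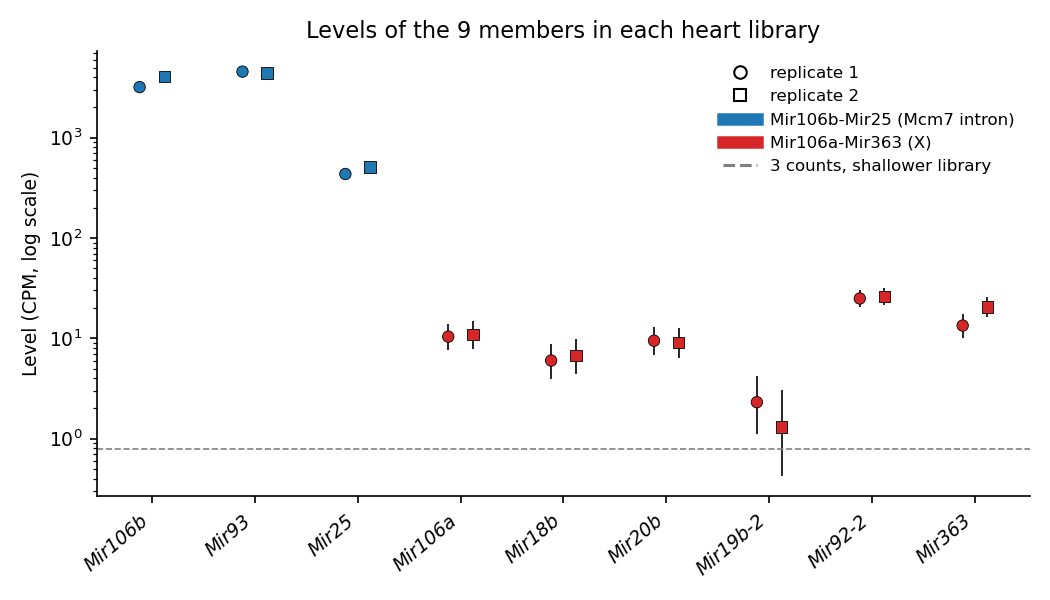
Level of each of the 9 members in CPM (log scale) in replicate 1 (circles) and replicate 2 (squares), with exact 95% counting intervals as bars, and the level of 3 counts in the shallower library as a dashed line. The 3 genes in Mcm7 (blue) sit between 434 and 4552 CPM, and the 6 X-linked genes (red) between 1.30 and 26.3 CPM.

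On the X chromosome the order of levels was the same in both libraries, although several neighbours in it differed by less than counting error. Mir92-2, the second source of miR-92a, was highest with 108 and 101 counts, or 25.0 and 26.3 CPM (25.6 ± 0.951). Mir363, the distal gene with the miR-92 seed, had 58 and 79 counts, or 13.4 and 20.6 CPM (17.0 ± 5.07). Mir92-2 exceeded Mir363 by 1.86-fold (1.34 to 2.61) in replicate 1, but in replicate 2 the ratio of 1.28 had an interval from 0.943 to 1.74 that includes equality. Mir106a, the first hairpin and closest relative of Mir17, had 45 and 42 counts, or 10.4 and 10.9 CPM (10.7 ± 0.381). Mir20b, of the same seed, had 41 and 35 counts, or 9.47 and 9.11 CPM (9.29 ± 0.254). Mir106a and Mir20b could not be ordered at this depth, with ratios of 1.10 (0.703 to 1.72) and 1.20 (0.748 to 1.94). Mir18b had 26 counts in each library, or 6.01 and 6.77 CPM (6.39 ± 0.539), and the intervals of its ratio to Mir20b also included equality in both libraries. Mir19b-2 had 10 and 5 counts, or 2.31 and 1.30 CPM (1.81 ± 0.713), and lay below Mir18b by 2.60-fold (1.21 to 6.04) and 5.20-fold (1.97 to 17.3). Mir92-2 and Mir363, which share a seed, together made up most of the assigned reads of the cluster. Their shares were 37.5% (31.9 to 43.4) and 20.1% (15.7 to 25.2) in replicate 1 and 35.1% (29.6 to 40.9) and 27.4% (22.4 to 33.0) in replicate 2. Counts of Mir92-2 and Mir19b-2 leave out any reads that mapped to several places. The order and the shares are therefore of assigned reads only. Nearest in level to Mir92-2 were Mir184, Mir449a and Mir338, which differed from it by 0.01, 0.02 and -0.09 in mean log2(CPM + 1).

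Reads on the opposite strand were almost absent. Mir20b had 1 in replicate 1 and 2 in replicate 2, and the 8 other members had 0 in both.

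**Figure D2:**
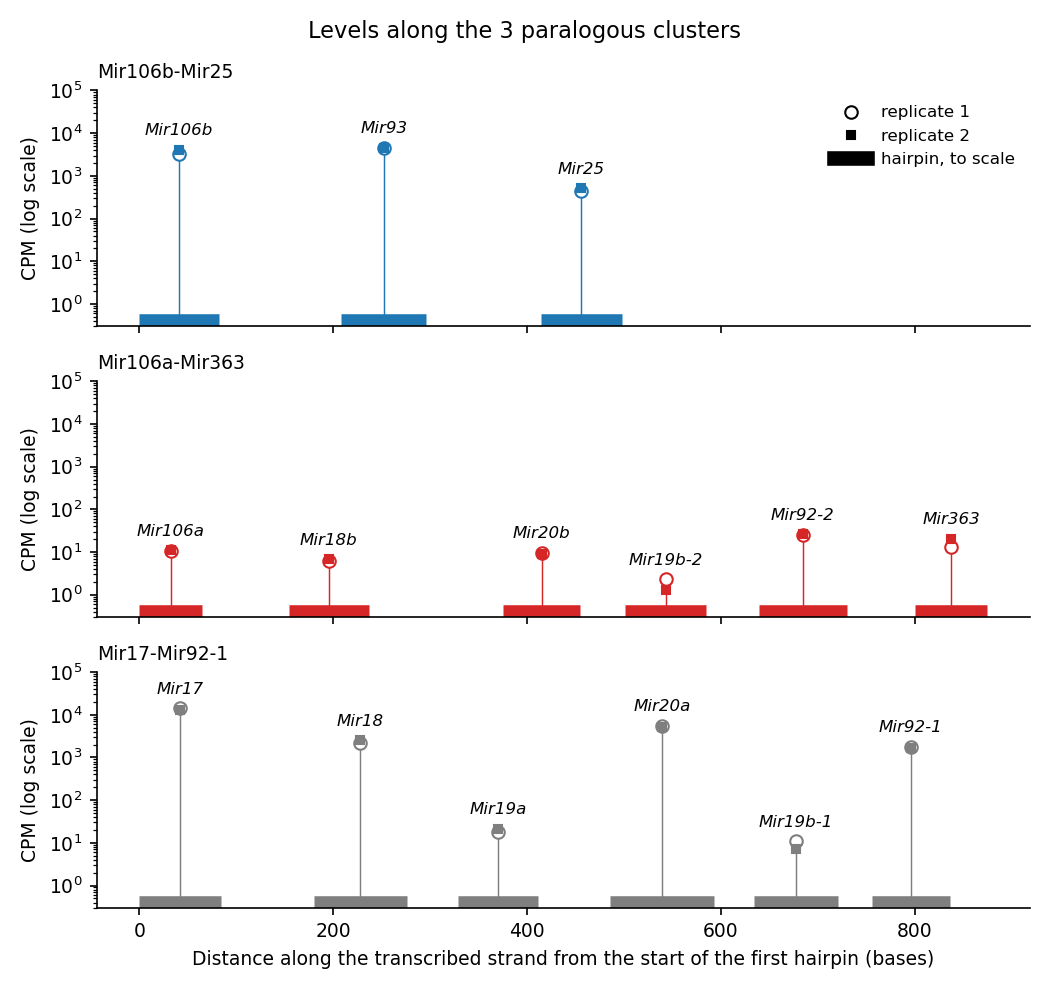
Levels in CPM (log scale) in replicate 1 (open circles) and replicate 2 (filled squares) against the position of each hairpin, drawn to scale in bases from the start of the first hairpin, for the clusters Mir106b-Mir25, Mir106a-Mir363 and Mir17-Mir92-1. The X-linked cluster has 6 hairpins over 875 bases, none above 26.3 CPM, while the genes of the miR-19 seed are the lowest of their own cluster in both clusters that have them.

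Set beside their counterparts of like seed and order, the X-linked genes were low in assigned reads one by one and not only in sum. For Mir92-2 this does not settle the level. Its seed-bearing arm is identical to that of Mir92-1, and its counts leave out any reads that mapped to several places. Mir106b exceeded Mir106a by 307-fold (229 to 421) and 373-fold (276 to 518), and Mir93 exceeded Mir20b by 480-fold (354 to 670) and 482-fold (347 to 693). The gaps in assigned reads among genes of the miR-92 seed were narrower. Mir25 exceeded Mir92-2 by 17.4-fold (14.3 to 21.3) and 19.3-fold (15.8 to 23.8), and Mir363 by 32.4-fold (25.0 to 42.9) and 24.7-fold (19.7 to 31.3). In both libraries the intervals of the miR-17 seed pairs lay entirely above those of the miR-92 seed pairs.

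The Mir17-Mir92-1 cluster on chromosome 14, the third of the paralogous clusters, stood above both. It summed to 23527 and 22087 CPM, which was 2.88-fold (2.84 to 2.91) and 2.46-fold (2.43 to 2.49) the sum of the cluster in Mcm7. That sum includes Mir92-1 and Mir19b-1, whose counts leave out any reads that mapped to several places. The ratio of these sums and that of Mir92-1 to Mir25 are therefore of assigned reads only. The distance to the Mcm7 cluster depended on the gene. Mir17 exceeded Mir106b by 4.41-fold (4.33 to 4.49) and 3.14-fold (3.08 to 3.19), and Mir92-1 exceeded Mir25 by 4.11-fold (3.91 to 4.33) and 3.20-fold (3.04 to 3.37). Mir20a and Mir93 were close, at 1.20 (1.18 to 1.22) and 1.17 (1.14 to 1.19). Mir18, the source of miR-18a, exceeded Mir18b by 363-fold (248 to 557) and 371-fold (253 to 568), and Mir17 exceeded Mir106a by 1353-fold (1011 to 1855) and 1170-fold (866 to 1624).

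The miR-19 genes had few assigned reads in both clusters that hold them. Mir19a had 76 and 81 counts, Mir19b-1 had 47 and 28, and Mir19b-2 had 10 and 5. Mir19b-1 exceeded Mir19b-2 by 4.70-fold (2.34 to 10.4) and 5.60-fold (2.13 to 18.6), the smallest gap between any X-linked member and its Mir17-Mir92-1 counterpart. Mir92-1 exceeded Mir92-2 by 71.6-fold (59.2 to 87.4) and 61.8-fold (50.8 to 76.0). Both comparisons are between genes with an identical 3p arm and distinct 5p arms, and the counts do not show which arm the reads came from. They also leave out reads that mapped to several places, which these 3p arms can produce. The counts and gaps of these genes are therefore of assigned reads only.

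The level of each gene was set beside the distance of its seed-bearing arm from the nearest match. Against 2202 annotated miRNA hairpins, the seed-bearing arm of Mir363 had no match in another hairpin with under 8 mismatches, and its level was 13.4 and 20.6 CPM. Mir17 has its nearest match at 1 mismatch, as Mir106a does, and reached 14069 and 12800 CPM. Mir18 and Mir18b have each other as nearest match, at 2 mismatches, and stood at 2183 and 2510 CPM against 6.01 and 6.77. The nearest matches of Mir106b, Mir93 and Mir25 lay at 3 mismatches. How many mismatches the alignment allowed is not given in the sources used here, and only annotated hairpins were searched. The part of reads that mapped to several places in the levels of Mir106a, Mir20b and Mir18b was not tested. Mir106a had 45 and 42 counts, beside 60882 and 49153 for Mir17. Whether misread bases placed some reads of Mir17 on Mir106a, or of Mir20a and Mir18 on Mir20b and Mir18b, was not tested either.

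**Figure D3:**
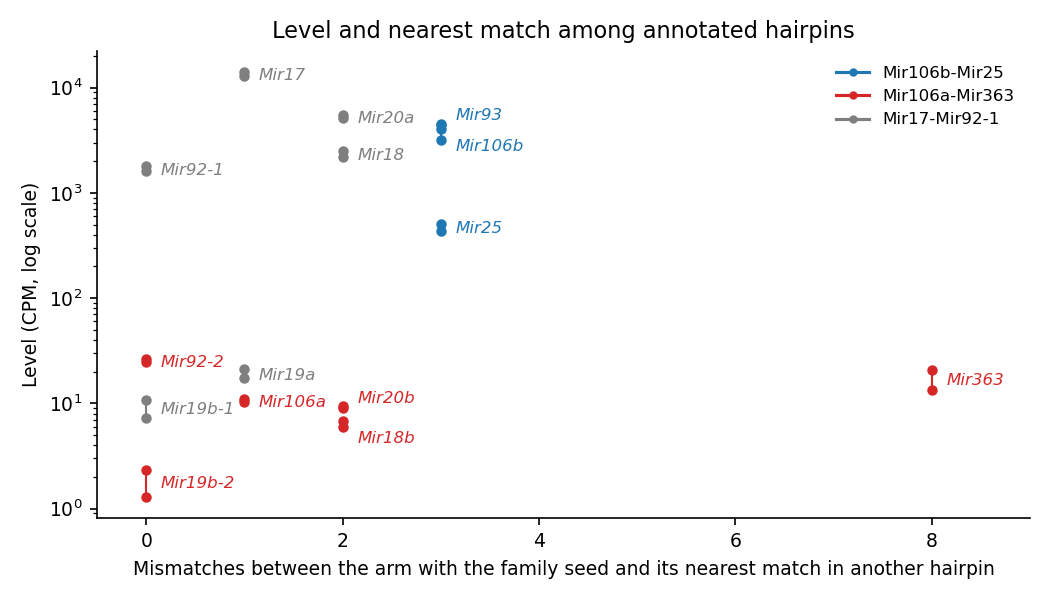
Level in CPM (log scale) of the 15 genes of the 3 clusters, as a point for each library joined by a line, against the number of mismatches between the seed-bearing arm and its nearest match in another annotated hairpin. At 0, 1 and 2 mismatches the plot holds both low genes and genes above 1000 CPM, and Mir363 is low at 8 mismatches.

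Reads of each seed family were then divided by source. The miR-17 seed is carried by 7 genes with a row, which summed to 118105 counts in replicate 1 and 101453 in replicate 2, or 27292 and 26420 CPM. Mir106b and Mir93 gave 28.4% (28.1 to 28.6, exact Clopper-Pearson interval) of these in replicate 1 and 32.1% (31.8 to 32.4) in replicate 2. Mir106a and Mir20b gave 0.0728% (0.0582 to 0.0899) and 0.0759% (0.0599 to 0.0948). Singly, Mir106b gave 11.7% and 15.4% of the family, and Mir93 16.7% and 16.6%. The remainder came from Mir17 and Mir20a, since Mir6383, the seventh gene with this seed, had 0 counts in both libraries.

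For the miR-92 seed 7 genes with a row summed to 10259 and 8926 counts, or 2371 and 2324 CPM. Mir25 gave 18.3% (17.6 to 19.1) and 21.9%, with intervals that did not overlap, and Mir92-1 gave 75.3% and 70.0%. Mir92-2 and Mir363 together gave 1.62% (1.38 to 1.88) and 2.02% (1.74 to 2.33). Mir32 and Mir92b, which lie elsewhere in the genome, had 437 and 480 counts and 47 and 68 counts, and Mir367 had 0 in both. Mir363 and Mir92b were not separable at this depth, with ratios of 1.23 (0.826 to 1.85) and 1.16 (0.829 to 1.63). Of the miR-18 seed, Mir18b gave 0.274% and 0.269%, the rest being Mir18. Of the miR-19 seed, with 133 and 114 counts in all, Mir19b-2 gave 7.52% (3.66 to 13.4) and 4.39% (1.44 to 9.94). These shares leave out reads that mapped to several places, which the identical miR-92a-3p arms of Mir92-1 and Mir92-2 can produce.

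**Figure D4:**
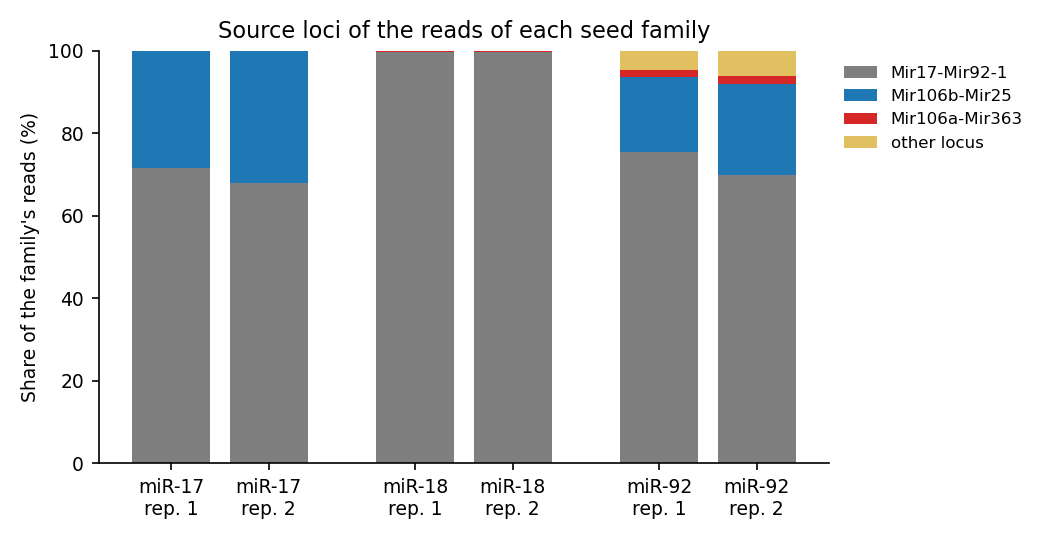
Share of the assigned reads of the miR-17, miR-18 and miR-92 seed families (%) that came from each of the 3 paralogous clusters or another locus, by library. The cluster in Mcm7 (blue) gives 28.4% and 32.1% of the miR-17 family and 18.3% and 21.9% of the miR-92 family, and the X-linked cluster (red) at most 2.02% of any of the 3 families.

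Between the libraries the genes in Mcm7 did not move as a unit. Mir106b was 1.28-fold higher in replicate 2 (1.25 to 1.31) and Mir25 1.17-fold higher (1.10 to 1.25), while the ratio of Mir93 was 0.966 (0.946 to 0.986). Mir106b accordingly made up 39.0% (38.5 to 39.5) of the cluster in replicate 1 and 45.4% (44.9 to 46.0) in replicate 2, and Mir93 55.7% (55.1 to 56.2) and 48.9% (48.4 to 49.4). Mir25 stayed between 5.31% and 5.66%. The Mir17-Mir92-1 genes did not move as a unit either. Mir18 had a ratio of 1.15 (1.12 to 1.18), against 0.910 (0.899 to 0.921) for Mir17. Mir20a stood at 0.938 (0.920 to 0.956) and Mir92-1 at 0.911 (0.881 to 0.942), and the intervals of Mir19a and Mir19b-1 included 1. Among the X-linked genes Mir363 had a ratio of 1.53 (1.08 to 2.19), and the intervals of the 5 others included 1. With median-of-ratios scaling, which moved every log2 ratio by -0.11, the ratio of Mir363 was 1.42 and its interval, 0.998 to 2.03, included 1. Under that scaling the ratios of Mir106a and Mir92-2, 1.05 for both by total reads, were 0.972 and 0.974.

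Counting intervals that exclude 1 were found for 4 of the 8 detected members, against 52.2% of the 337 detected genes (32.6% higher and 19.6% lower in replicate 2). With at least 100 counts in each library they were found for 3 of 4 members, against 67.1% of all such genes. The members' shares were thus near those of all genes. Their median absolute log2 ratio was 0.12, against 0.23 over all detected genes. The erythroid list was at 1184 and 489 CPM in the same libraries, the epithelial list at 667 and 1142, and the part of other cell types in the ratios of the members was not tested.

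**Figure D5:**
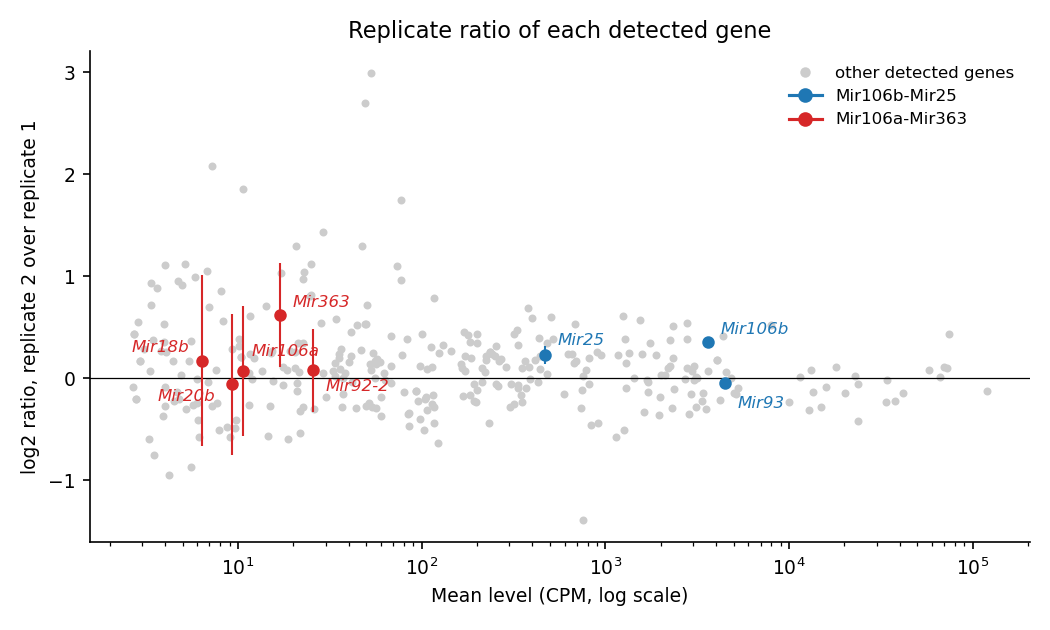
log2 ratio of the level in replicate 2 to that in replicate 1 against mean level (CPM, log scale) for the detected genes, with the 8 detected members in colour and their exact 95% counting intervals as bars. The members lie between -0.06 (Mir20b) and 0.62 (Mir363), within the range of -1.39 to 2.99 of all 337 detected genes.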

How the data were processed

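The members are all genes of the 2 named clusters, but the clusters, the lists and the comparisons were chosen with earlier results of these data known, which may have shaped that choice. The authors deposited 1 table of raw read counts per library, with no header line, for 1973 miRNA genes in 3 count columns. Per the text deposited beside the tables, the counts refer to mm10 and GENCODE M4. No source used here names the aligner or counting program. The columns carry no names, and the second and the third add up to the first. The second, column 3 of the table, holds nearly all gene reads (95.3% and 95.4%) and was used. Totals leave out 4 lines for reads given to no gene, which hold 30.6% and 30.1% (several places), 11.7% and 12.2% (unmapped) and 4.58% and 4.89% (no gene) of all reads. Counts are per hairpin gene, so 5p and 3p arms are not separated. Symbols and coordinates are from GENCODE M21 (1894 of 1973 identifiers named) and sequences from RefSeq. Intervals are exact binomial intervals (SciPy 1.17.1, Python 3.11.15) at 95% and take in counting error alone, as no molecular identifiers mark independent molecules. The interval function was tested on simulated counts that held counting error alone, so the test does not cover other variation between libraries. Apart from the marker lists, Mir1a-1 and Mir133a-1, named genes are the members, the Mir17-Mir92-1 genes and every gene of the 4 seeds. The 3 genes nearest in level to the highest member of each cluster are also named. Alternatives were unstranded counts, TMM (edgeR 4.0.16) and median-of-ratios (DESeq2 1.42.0) scaling, leaving the top gene out of the total, thinning, other count minimums and pseudocounts, and each library left out. Mir142 and Mir9-1, of the white blood cell and neuronal marker lists, have no row. The remaining lists summed to 64494 and 87098 CPM (smooth muscle, Mir143 and Mir145a), 69932 and 75015 (endothelial, Mir126a) and 479 and 389 (white blood cell, Mir223 and Mir155).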

Additional observations from a re-analysis of the deposited data

How the results depend on the processing

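The alternatives run on the ratio of the cluster sums were unstranded counts, each library left out, and removal of members with an identical arm. The cluster in Mcm7 stayed above the X-linked one in each, with a ratio of 121 with unstranded counts. It was 120 without replicate 1 and 123 without replicate 2. No alternative put back the reads that mapped to several places, so their part in the ratio was not tested. With the most abundant gene taken out of the total, the sums rose with the scale to 9745 CPM for the cluster in Mcm7 and 80.4 CPM for the X-linked one. Without members whose arm is identical to that of another hairpin the ratio of the sums was 199, against 121 with all members. Mir92-2 and Mir19b-2 leave the X-linked sum alone, so this removal can only raise the ratio. The number of detected members was 8, and it was 5 with at least 50 counts in each library and 4 with at least 100. The log2 differences between counterparts kept their sign in all 13 pairs. They stayed within the spread between libraries in 9 of 13 pairs with a pseudocount of 0.1 CPM, in 3 with 10 CPM and in 10 with unstranded counts. With 10 CPM, Mir18 minus Mir18b was 7.16 against 8.31, Mir106b minus Mir106a 7.45 against 8.27, and Mir19b-1 minus Mir19b-2 0.69 against 1.84 (2.29 with 0.1 CPM). Of the 4 members whose replicate ratio stood apart from 1, 3 did so with median-of-ratios scaling, where Mir363 did not. That scaling gave replicate ratios of 1.18 for Mir106b, 1.08 for Mir25 and 0.892 for Mir93, and TMM 1.22 for Mir106b and 0.923 for Mir93. Depth limits the X-linked genes, where 5 of 6 had under 100 counts in each library.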
